A study of Mus musculus with 4 samples.

Results

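Of 63926 ATAC-seq peaks on the 19 autosomes in control facial ectoderm, 1561 (2.44%) lay in gene deserts, with their centres more than 500 kb from the nearest start site of a protein-coding gene. The members were chosen by position alone, from the 65467 control peaks of all chromosomes, using 1 start site per gene, that of the principal transcript in the GENCODE mouse annotation. Each member was then marked when it overlapped, by at least 1 bp, a region that was more accessible in control than in EDKO ectoderm. Such regions are called AP-2-dependent here.

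ATAC-seq maps accessible DNA by the insertion of a transposase. The tissue was surface ectoderm of the facial prominences, pooled from mouse embryos at E11.5, and 2 libraries were made for each genotype. The EDKO embryos carried Crect, an ectodermal Cre transgene, with Tfap2a flox/flox and Tfap2b flox/flox, so that both AP-2 genes were recombined in the ectoderm. The controls were littermates that lacked Crect and carried Tfap2a flox/+ and Tfap2b flox/+, so each control had a single unrecombined floxed allele of each gene. The remaining AP-2 genes were not targeted, the cells were dissected tissue and not sorted, and no expression value was used here to check the ectodermal identity. The peak list combined both control libraries, and the AP-2-dependent regions came from 1 comparison of both control with both EDKO libraries. No value below therefore has an error between libraries, and intervals on shares are 95% Wilson intervals that cover counting error only.

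Gene deserts in the usual sense are long stretches of a mammalian chromosome without a protein-coding gene. Many of them flank genes for developmental transcription factors or for neuronal adhesion molecules. Here gene deserts are set by distance from a start alone, so they can also run through the bodies of long genes. They can hold enhancers, which bind transcription factors and act on promoters over long distances within a chromatin domain, while CTCF marks many domain boundaries and loop anchors. AP-2 proteins, encoded by the Tfap2 genes, are transcription factors of the early ectoderm and neural crest that bind a GC-rich palindrome.

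A set of 7 sequences shows what such distant peaks look like, each of 200 bases around the summit on the forward strand of GRCm38. The first set of 3 is from the AP-2-dependent members with the largest regions that had a match to GCCNNNGGC, the AP-2 string, within 100 bp of the summit, and capitals mark the match. The member chr14:107987767-107988311, printed from chr14:107987927-107988126, lay 926.1 kb from Slitrk1, which encodes a neuronal transmembrane protein. The member chr16:83488134-83488809, printed from chr16:83488252-83488451, lay 660.1 kb from the predicted gene Gm21833. The member chr5:46824726-46825259, printed from chr5:46824953-46825152, lay 967.5 kb from Lcorl in the desert on the other side of which Slit2, a secreted axon guidance ligand, begins.
chr14 member in the Trim52–Slitrk1 desert: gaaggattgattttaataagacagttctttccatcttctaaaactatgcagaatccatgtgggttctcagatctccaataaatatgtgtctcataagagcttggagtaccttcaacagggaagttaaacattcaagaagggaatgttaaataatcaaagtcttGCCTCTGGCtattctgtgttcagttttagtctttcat
chr16 member in the Gm21833–A730009L09Rik desert: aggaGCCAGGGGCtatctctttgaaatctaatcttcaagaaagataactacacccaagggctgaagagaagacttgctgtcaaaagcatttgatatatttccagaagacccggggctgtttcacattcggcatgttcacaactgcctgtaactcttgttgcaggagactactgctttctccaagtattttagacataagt
chr5 member in the Lcorl–Slit2 desert: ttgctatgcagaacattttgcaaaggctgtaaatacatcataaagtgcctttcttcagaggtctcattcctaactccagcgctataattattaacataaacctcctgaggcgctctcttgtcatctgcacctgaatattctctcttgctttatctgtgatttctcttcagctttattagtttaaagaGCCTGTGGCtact

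The AP-2-dependent member with the largest region of single-copy sequence, and the Tfap2b desert member with the largest region, held no AP-2 string in this window but did hold the p53 family string, the paired core of the p63 type of site, in capitals. The first, chr7:95349881-95350914, lay 861.3 kb from Tenm4, which encodes a teneurin, and is printed from chr7:95350231-95350430. The second, chr1:19825921-19826817, lay 617.5 kb from Tfap2b and is printed from chr1:19826529-19826728.
chr7 member in the Fam181b–Tenm4 desert: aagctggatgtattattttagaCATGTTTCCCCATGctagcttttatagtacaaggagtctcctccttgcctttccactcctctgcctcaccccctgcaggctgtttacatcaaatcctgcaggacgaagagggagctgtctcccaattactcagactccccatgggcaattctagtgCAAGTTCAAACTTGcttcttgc
chr1 member in the Tfap2b–Pkhd1 desert: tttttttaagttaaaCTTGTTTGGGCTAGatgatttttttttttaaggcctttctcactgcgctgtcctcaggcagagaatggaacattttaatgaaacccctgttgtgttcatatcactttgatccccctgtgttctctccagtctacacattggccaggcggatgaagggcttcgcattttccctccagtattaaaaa

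A further pair is shown for members without an AP-2-dependent region. The strongest single-copy member, chr16:42874526-42876940, is printed from chr16:42875438-42875637 with its 8 CpG dinucleotides in capitals. A member with the CTCF string, with a summit −log10 p of 6.61, is printed from chr4:84064732-84064931 with that match in capitals.
chr16 member in the Gap43–Zbtb20 desert: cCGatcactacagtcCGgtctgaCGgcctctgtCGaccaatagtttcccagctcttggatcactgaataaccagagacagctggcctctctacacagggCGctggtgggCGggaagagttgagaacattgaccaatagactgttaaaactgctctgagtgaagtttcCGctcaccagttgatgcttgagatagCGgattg
chr4 member in the Ccdc171–Bnc2 desert: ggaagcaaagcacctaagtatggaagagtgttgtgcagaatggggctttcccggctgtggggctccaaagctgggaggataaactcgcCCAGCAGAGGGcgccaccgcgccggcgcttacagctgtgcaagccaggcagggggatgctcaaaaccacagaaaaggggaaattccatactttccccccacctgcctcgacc

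Control peaks became sparser with distance from a gene. There were 101.8 peaks per Mb within 5 kb of a start site, 28.8 at 5 to 50 kb, 17.7 at 50 to 500 kb and 5.46 in the 285.9 Mb of sequence beyond 500 kb. AP-2-dependent peaks thinned out less, from 1.57 per Mb within 5 kb, through 1.31 and 1.21, to 0.626 per Mb in the deserts. The gene-desert peaks were the sparsest of the 4 distance classes on both counts.

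AP-2-dependent regions were found in 179 of the 1561 gene-desert peaks (11.5%, 9.98 to 13.1%), against 4.51% of all autosomal control peaks. The share was 1.54% (1.37 to 1.72%) within 5 kb of a start, 4.56% (4.30 to 4.83%) at 5 to 50 kb and 6.82% (6.47 to 7.18%) at 50 to 500 kb. The interval of the gene-desert share thus lay above that of each other class. Peaks of 1 pooled call are not replicates, so this difference was not tested and carries no p-value.

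Within the deserts, the share was 10.6% of the 924 members at 500 to 750 kb, 13.2% of the 342 at 750 to 1000 kb and 12.2% of the 295 beyond 1000 kb. The share in deserts was above that at 50 to 500 kb on 16 of the 19 autosomes. The exceptions were chromosomes 6 and 11, and chromosome 19 with no AP-2-dependent region among its 6 members. Chromosome 15 had the highest share, with 13 of 49 members (26.5%). Leaving out 5 deserts with the most AP-2-dependent members, a choice made after their values were seen, left 154 of 1432 (10.8%). The fifth of them, Fstl5–Rapgef2, tied with other deserts at 4 such members.

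**Figure D1:**
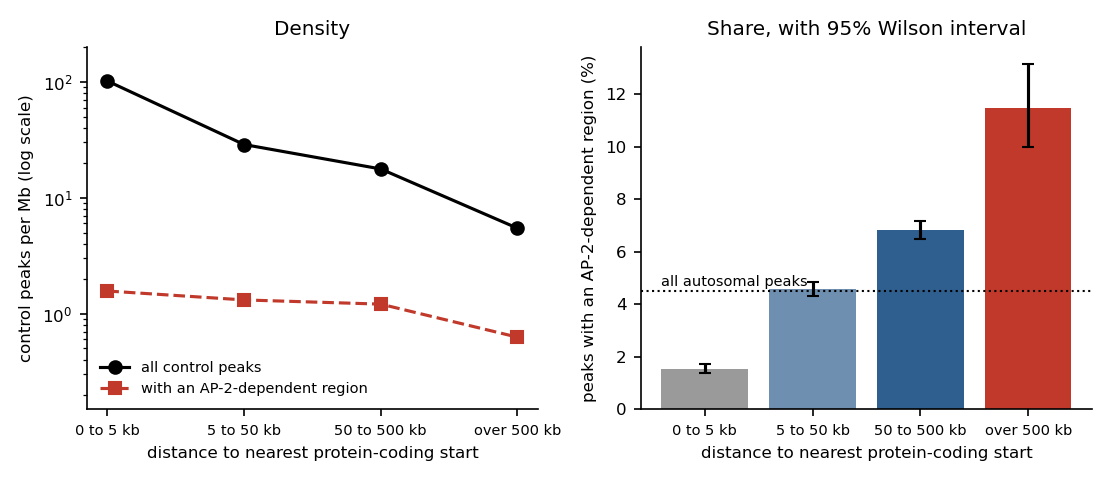
Left, control peaks per Mb (log axis) by distance to the nearest protein-coding start, for all peaks (circles, solid line) and for peaks with an AP-2-dependent region (squares, dashed line). Right, the percentage of peaks with such a region, with 95% Wilson intervals and the share of all autosomal peaks as a dotted line: density is lowest beyond 500 kb, at 5.46 per Mb, and the share is highest there, at 11.5%.

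Gene-desert peaks were weaker, narrower and lower in GC content than peaks within 5 kb of a start. In strength and width they were close to the peaks at 50 to 500 kb. The median −log10 p at the summit, which measures how far the pooled control signal stood above the genome-wide background, was 4.44 (quartiles 3.84 and 5.50), against 7.68 within 5 kb and 4.58 at 50 to 500 kb. The median width was 418 bp (quartiles 303 and 597), against 1080 bp within 5 kb and 460 bp at 50 to 500 kb. The median GC content was 44.2%, against 57.2, 51.3 and 48.5% in the classes from near to far, and the median observed to expected CpG ratio was 0.190.

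AP-2-dependent members were the stronger ones. Among single-copy members, the summit −log10 p had a median of 5.74 in the 170 with a region and 4.44 in the 1157 without, with quartiles of 4.54 and 7.04 against 3.87 and 5.43. The ranges overlapped, from 3.35 to 10.7 with a region and from 2.89 to 15.1 without, and the 9 strongest single-copy members had none. GC content was lower with a region, at a median of 40.6% against 43.6%. The control libraries entered both calls, so the strength of a peak and its overlap with a region were not independent measures.

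Comparing peaks of like strength left the order of the classes in place. All autosomal peaks were divided at the quartiles of summit −log10 p. From the weakest to the strongest of these 4 groups, 3.72, 8.52, 19.4 and 33.6% of gene-desert peaks had an AP-2-dependent region, against 1.36, 4.07, 9.63 and 23.1% at 50 to 500 kb. The share in deserts was higher in all 4 groups, and the intervals of these shares did not overlap in any of them. In the strongest group, 44 of 131 gene-desert peaks had a region (26.1 to 42.0%).

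By GC content the picture was less uniform. In the group of peaks below the first quartile of GC content, which held 1042 of the members, 14.9% (12.8 to 17.2%) of gene-desert peaks had an AP-2-dependent region, against 9.68% (9.04 to 10.4%) at 50 to 500 kb. In the next group the shares were 7.30% of 274 members and 6.67%, with overlapping intervals. In the upper pair of groups they were 2.80 and 0.725% in deserts, below 3.196 and 2.71% at 50 to 500 kb. A higher share in deserts with separate intervals was therefore seen only in the group of lowest GC content. The upper pair of groups held too few AP-2-dependent members to show a difference in either direction. The part that GC content plays in the higher share was not tested.

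**Figure D2:**
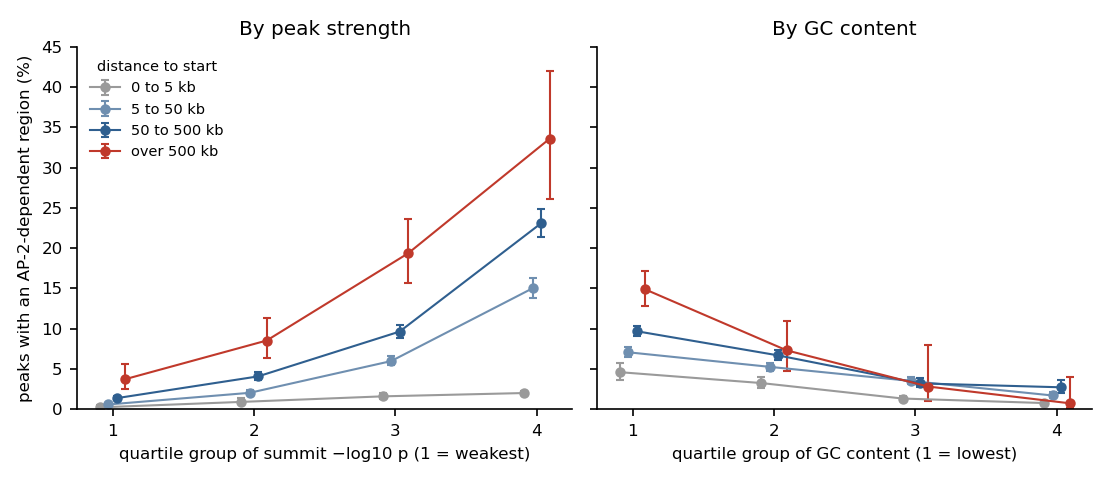
Percentage of control peaks with an AP-2-dependent region in groups divided at the quartiles of summit −log10 p (left) and of GC content (right), with 1 line per distance class and 95% Wilson intervals. Beyond 500 kb the share rises from 3.72% in the weakest to 33.6% in the strongest group and lies above the other classes throughout, whereas by GC content it lies above them only in the 2 groups of lower GC content.

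The 180 AP-2-dependent regions in the 179 members were 5.98% of the 3010 such regions on autosomes. A region covered a median of 92.7% of its member, and in 131 members (73.2%) the summits of region and peak lay within 50 bp of each other. These regions thus took in nearly whole peaks, and only 62 of the members (3.97%) had a region whose area reached 500, the area being the −log10 p summed over the region above its threshold. At 50 to 500 kb, 2.34% of peaks had a region of that size.

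Single AP-2-dependent members illustrate the range. The largest single-copy region was in the Tenm4 member shown above, with a summit −log10 p of 10.1 for the control peak and 8.82 for the region. Next came chr4:75869266-75870189, 580.3 kb from Ptprd, a receptor tyrosine phosphatase gene of synapses, with 7.30 and 5.96. The Slitrk1 member had 7.35 and 6.57. In the latter pair the region spanned the whole control peak.

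A member inside Lrmda, chr14:22709960-22711324, had 9.76 for the peak and 6.59 for the region. Lrmda is known for its role in melanocyte differentiation. The member chr1:148265449-148266014 was the most distant of these 10, at 1696 kb from Pla2g4a, a phospholipase gene, with 9.23 and 7.36. The Csmd3–Trps1 desert, next to the transcription factor gene Trps1, held 4 members, of which chr15:49405778-49406689 had 8.98 and 6.54. It lay 614.2 kb from Csmd3 and 1483 kb from Trps1, so its nearest gene was not the transcription factor.

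The remaining members of these 10 lay near cadherin and other genes. The member chr15:15636912-15637617, 1141 kb from the cadherin gene Cdh9, had 8.58 for the peak and 6.41 for the region. The member chr12:63759337-63760168, 714.9 kb from Fscb, had 7.04 and 5.90. The Gm21833 and Slit2 members printed above had 6.43 and 6.16, and 7.20 and 6.83. All 10 control peaks were well above the median strength of gene-desert peaks. They were picked by the size of the region, and the control libraries entered both calls, so these measures were not independent.

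The strongest single-copy members were a different group. The first, at 15.1, covered the start of the long non-coding RNA gene 4932412D23Rik, with its summit 49 bp from that start, a GC content of 56.3% and a CpG ratio of 0.738, both like those of promoters. Next came chr1:102628045-102628383, only 339 bp wide, at 14.1 and 2140 kb from Cdh20. The third, chr12:89811538-89813095 at 12.8, lay inside Nrxn3, a neurexin gene, 926.1 kb from the nearest start site, that of Dio2.

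The others included chr1:81592984-81594476 at 12.8 near Nyap2 and chr14:22667796-22669397 at 11.99 inside Lrmda. The member chr12:28047338-28049205, in the desert beside Sox11, a transcription factor gene of progenitor cells, had 11.5. The member chr1:76167192-76168432, in the desert between Slc4a3 and the ephrin receptor gene Epha4, had 11.2. The widest of all members, chr5:132540925-132544910, spanned 3986 bp inside Auts2 at 11.1, with a GC content of 59.3% and a CpG ratio of 0.737. It lay 926.3 kb upstream of the principal transcript start of Auts2 but inside the gene body. Another Auts2 transcript therefore starts at or beyond the summit of this peak, at a distance not given here. The start of the non-coding gene Gm28616 lay 1097 bp from the summit.

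The ninth, chr1:122357086-122357294 near Ddx18, was 209 bp wide at 10.8. Only the tenth, chr1:194107804-194110126 at 10.7, was AP-2-dependent. It lay 510.9 kb upstream of Plxna2, a semaphorin receptor gene, and was the 1 member with 2 regions, the larger at −log10 p 7.59. The 10 strongest members and the 10 with the largest AP-2-dependent regions therefore had none in common.

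The most distant single-copy member, chr14:90911143-90911319, lay 2440 kb from Pcdh20, near the middle of the desert between the protocadherin genes Pcdh20 and Pcdh9. It was 177 bp wide at a −log10 p of 7.91, without an AP-2-dependent region, and 64.4% of its bases are marked as interspersed or simple repeat in the reference. The next pair lay between Tenm3 and Aga at 2334 and 2241 kb, with 3.60 and 5.43, and each was close to an annotated non-coding start, 94 bp from Gm32975 and 806 bp from C130073E24Rik. The last pair lay between Celf4 and Pik3c3 at 2209 and 2195 kb, with 4.31 and 5.93. None of the 5 overlapped an AP-2-dependent region.

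Sequence strings differed between deserts and gene-near peaks. The CTCF string, an 11-letter consensus searched on both strands within 100 bp of the summit, was found in 26 members (1.67%, 1.14 to 2.43%), against 3.78% of peaks within 5 kb, 9.65% at 5 to 50 kb, 4.94% at 50 to 500 kb and 6.27% of all autosomal peaks. In windows of the same size 1 kb to each side of the members it was found in 0.192%. Of the 26 members, 10 lay in the bodies of protein-coding genes, 4 of them in Pde4d, a cyclic AMP phosphodiesterase gene. None of the 26 overlapped an AP-2-dependent region (upper limit of the interval 12.9%), and at 50 to 500 kb 9 of 956 did (0.941%).

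The AP-2 string GCCNNNGGC was found in 200 members (12.8%, 11.2 to 14.6%), against 14.4% of all autosomal peaks and 11.9% at 50 to 500 kb. In the windows 1 kb away it was found in 2.02%, so the share at the summit was 6.35 times that of the surroundings. This ratio was 3.28 within 5 kb, 2.52 at 5 to 50 kb and 3.02 at 50 to 500 kb. The share in the surroundings was 5.90, 4.97 and 3.94% in these classes, and the share at the summit was 19.4, 12.5 and 11.9%. All of these values include peaks of repeated sequence. Among single-copy gene-desert peaks alone the share at the summit was 11.2%.

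Of members with the AP-2 string, 17.5% (12.9 to 23.4%) had an AP-2-dependent region, against 10.6% (9.06 to 12.3%) of members without it. The same shares at 50 to 500 kb were 12.9 and 5.99%. Conversely, the string was found in 19.6% (14.4 to 26.0%) of members with a region and 11.9% (10.3 to 13.8%) of those without. When 3 or 4 free bases were allowed between the arms, these became 32.4% (26.0 to 39.6%) and 17.8% (15.9 to 19.9%). Most AP-2-dependent members had no match to either form in this window.

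The p53 family string, a 14-letter consensus of the sites of p53, p63 and p73, of which p63 is the epithelial member, was found in 12.9% (11.4 to 14.7%) of gene-desert peaks. This was 2.28 times the 5.67% of their surroundings, and the share over all autosomal peaks was 8.69%. The TEAD string GGAATG, for the DNA-binding partners of YAP and TAZ, was found in 24.5% (22.5 to 26.7%), 2.04 times the 12.01% of the surroundings, with 17.9% over all peaks. Both shares were the highest of the 4 distance classes. The interval for the p53 family lay above that at 50 to 500 kb (10.7%, 10.2 to 11.1%), and the interval for TEAD overlapped it (22.4%, 21.8 to 23.0%). In members with an AP-2-dependent region the shares were 11.2 and 22.9%, and without one 13.2 and 24.7%, with overlapping intervals.

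Other strings were searched as a description. The PBX string TGATTGACA was found in 2.18% of members and 0.937% of all autosomal peaks, and the GRHL string AACNGGTT, for the grainyhead-like factors of epithelia, in 4.04 and 3.10%. The AP-1 string TGANTCA was found in 7.30% of members and 6.73% of their surroundings, and the homeodomain core TAATTA in 7.88 and 9.001%. The last pair was thus about as common beside the peaks as at their summits. For PBX and GRHL the surroundings are not given, so these strings cannot be compared with that pair. A match to a short string is a property of the letters, and binding was not measured.

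**Figure D3:**
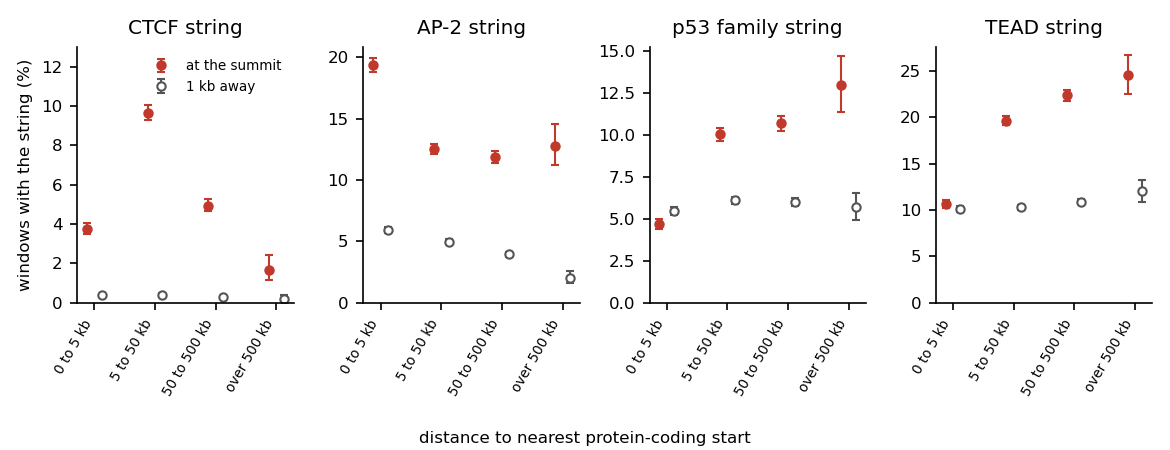
Percentage of windows with the CTCF, AP-2, p53 family and TEAD strings at the summit (filled) and 1 kb away (open), by distance to the nearest protein-coding start, with 95% Wilson intervals. Beyond 500 kb the CTCF string is at its lowest, 1.67%, the AP-2 string in the surroundings is at its lowest, 2.02%, and the p53 family and TEAD strings are at their highest, 12.9 and 24.5%.

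Beyond the reach of protein-coding starts, most members also lay outside any annotated gene. The summit was inside a protein-coding gene in 283 members (18.1%), inside a non-coding gene in 168 (10.8%) and in none in 1124 (72.0%). Only 15 summits were in an exon of a protein-coding gene. The share in a non-coding gene was close to that over all autosomal peaks, 11.2%.

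The protein-coding hosts were long genes whose principal start was distant. Lrmda held 25 members, Auts2 and Pde4d 19 each, Macrod2, an ADP-ribose hydrolase gene, 18, Lsamp, a neuronal adhesion gene, 14 and Fhit 13. AP-2-dependent were 3 of those in Lrmda, 1 in Auts2, 3 in Pde4d, 3 in Macrod2, 4 in Lsamp and 0 in Fhit. The share over all members was 11.5%, and whether these small counts differ from it was not tested. With the starts of every transcript of a protein-coding gene in place of the principal one, 1094 members were left. Where the lost members lay was not counted.

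Within 1 kb of the start of a non-coding RNA gene lay 33 members, of which 2 were AP-2-dependent, beside 11.5% of all members. A difference was not tested at so small a count. The strongest was the 4932412D23Rik peak. Below it came peaks on chromosome 12 at the predicted genes Gm5784, Gm40864 and Gm4425, with −log10 p of 12.3, 10.2 and 9.82, all of sequence that occurs more than 1 time in the assembly. Between them in rank, chr2:9351834-9352860 at 10.1, lay 36 bp from the start of Gm13219 and 526.3 kb from Gata3, a transcription factor gene of ectoderm and T cells. It was AP-2-dependent, with −log10 p of 5.72 for the region, and did not have CpG island composition, with a CpG ratio of 0.290.

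The 1561 members were spread over 298 of the 391 autosomal gene deserts, each being an interval between neighbouring starts that contains bases more than 500 kb from both. AP-2-dependent members occurred in 104 deserts, 38 of which had at least 2. Counts of such members in single deserts are given below as a description, beside a share of 11.5% over all members. Of the 97 deserts with at least 1 Mb of such bases, 94 held a member, and the density of single-copy members in them ran from 0 to 20.9 per Mb with a median of 2.55.

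The desert with the most members runs through 2 long genes. Between Lrmda and the potassium channel gene Kcnma1 on chromosome 14, 36 members, all single-copy, lay in 0.984 Mb, and 34 of them were inside either gene. Their summit −log10 p ran from 3.22 to 11.99 with a median of 4.52. The 5 AP-2-dependent ones lay 690.9, 739.9, 789.9, 1364 and 1416 kb from the Lrmda start, so 3 lay together and the other 2 toward Kcnma1.

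Between Zeb2 and Acvr2a on chromosome 2 lay 30 members in 2.70 Mb. Zeb2 encodes a zinc finger repressor of neural crest and epithelial-mesenchymal transition, and Acvr2a an activin receptor. The AP-2-dependent ones numbered 5, at 645.1, 1074, 1399, 2814 and 2835 kb from the Zeb2 start, and their control peaks were between 6.62 and 10.2. The median of the single-copy members of this desert was 5.02, and all 5 lay above it, in calls that shared the control libraries.

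Between Ttll7 and the latrophilin gene Adgrl2 lay 25 members, 5 of them AP-2-dependent, with 20.9 single-copy members per Mb, the highest density of the deserts of at least 1 Mb. Their AP-2-dependent peaks ranged widely in strength, from 4.08 to 10.2. Between Fstl5 and Rapgef2 lay 23 members in 2.21 Mb, 4 of them AP-2-dependent and none of these 4 above 5.83. The Ttll7–Adgrl2 desert is among those counted below beside synaptic and neuronal adhesion genes.

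Auts2–Castor2 held 24 members of which 1 was AP-2-dependent, and Slc10a2–Efnb2, beside the ephrin gene Efnb2, held 21 with 2. The pair in the latter lay toward Efnb2, at 828.9 and 557.2 kb from its start. Nudt12–Efna5, beside a further ephrin gene, held 22 with 3, of which 2 lay 785.9 and 674.0 kb from Efna5. Pde4d–Rab3c held 19 with 3, all inside Pde4d, and Flrt3–Kif16b held 18 with 3, all inside Macrod2.

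Between Celf2 and Gata3 lay 20 members in 2.16 Mb, 4 of them AP-2-dependent, including the Gm13219 peak. These 4 lay 1515, 904.3, 760.9 and 526.3 kb downstream of Gata3. The 6 members inside Celf2, an RNA-binding protein gene at the other end, had none. The 10 deserts with the most single-copy members together held 17.0% of them.

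The desert beside Tfap2b, 1 of the 2 AP-2 genes deleted in the EDKO ectoderm, was short and dense. Its 15 members, all single-copy and outside genes, lay in 0.409 Mb (36.7 per Mb), 524.3 to 765.2 kb from Tfap2b and 11 of them closer to it than to Pkhd1. Their summit −log10 p ran from 4.14 to 8.85 with a median of 5.49. The AP-2-dependent ones, at 526.7, 599.5 and 617.5 kb, had 6.02, 4.19 and 6.69, and the strongest peak of the desert, at 549.3 kb, had no region. Other deserts of under 1 Mb had 53.5 (Ccdc171–Bnc2), 38.1 (Sox11–Dcdc2c) and 15.4 (Kcnj2–Sox9) single-copy members per Mb. Such a density was therefore not particular to the Tfap2b desert.

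**Figure D4:**
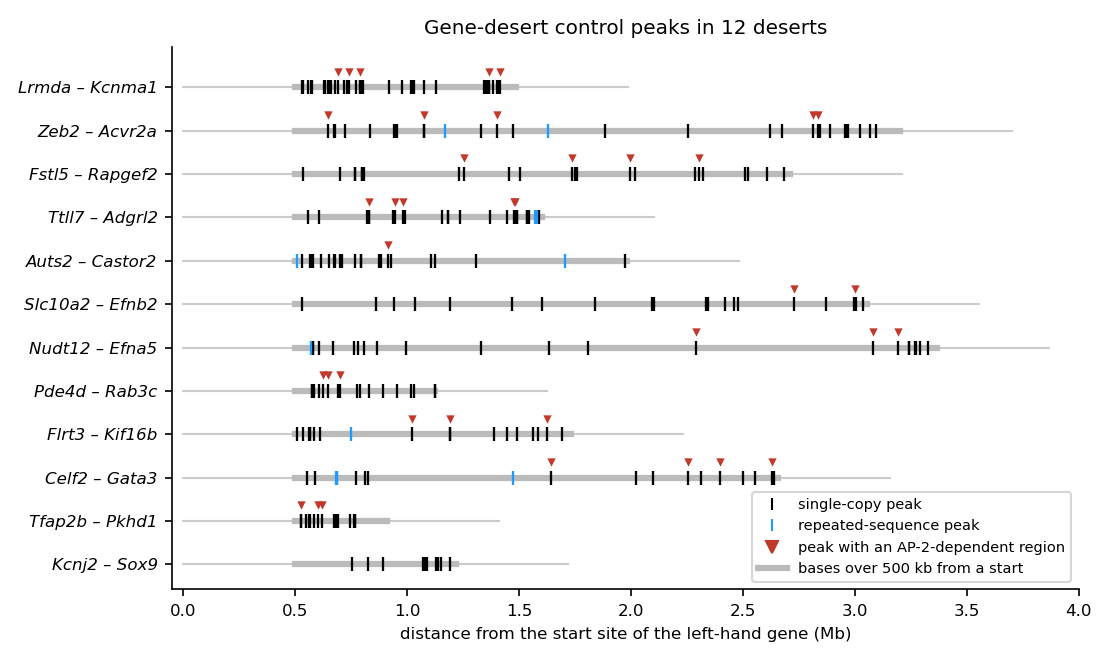
Positions of the control peaks in 12 deserts, as distance in Mb from the start of the left-hand gene; the thick grey line marks bases more than 500 kb from a start, black ticks single-copy peaks, blue ticks peaks of repeated sequence and triangles peaks with an AP-2-dependent region. The 10 deserts with the most single-copy peaks are followed by Tfap2b – Pkhd1, where 3 of 15 peaks have a region, and Kcnj2 – Sox9, where 0 of 11 do.

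Deserts that flank genes of 3 lists, chosen with earlier results of these data known, were compared by counts. Of 85 craniofacial and ectodermal transcription factor genes, 28 flanked a desert, and their 29 deserts held 156 members at 8.87 single-copy members per Mb, and 18 (11.5%, 7.42 to 17.5%) were AP-2-dependent. Of 61 genes for secreted signals and their inhibitors, 12 flanked a desert, and their 12 deserts held 87 at 8.54 per Mb, and 9 (10.3%, 5.54 to 18.5%) were AP-2-dependent. Of 83 synaptic and neuronal adhesion genes, 62 flanked a desert, and their 88 deserts held 470 at 3.63 per Mb, and 68 (14.5%, 11.6 to 17.9%) were AP-2-dependent.

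Deserts with no listed gene on either flank held 852 members at 4.65 per Mb, and 85 (9.98%, 8.14 to 12.2%) were AP-2-dependent. Peaks were thus denser beside transcription factor and signal genes, while the intervals of the AP-2-dependent shares overlapped for all lists. Desert length differs between the lists, at 16.2 Mb over 29 deserts for the transcription factors and 107.6 Mb over 88 for the adhesion genes, and its part in the densities was not tested.

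Single deserts beside developmental regulators held few members each, so their counts are a description only, to be read beside the 11.5% of all members. Whether the AP-2-dependent share differs between these deserts was not tested. Kcnj2–Sox9, beside the chondrogenic transcription factor gene Sox9 whose far upstream enhancers are known from craniofacial disease, had 11 members between 3.30 and 9.26 and no region. Inhba–Sugct, beside the activin gene Inhba, had 15 and no region. Sox11–Dcdc2c had 9 with 1, and Lcorl–Slit2 had 14 with 3.

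The most AP-2-dependent members in 1 desert were 6 of 15 between Pcdh20 and Pcdh9, the largest desert at 4.42 Mb. They lay 564.2, 1096, 1752, 2177, 4771 and 4854 kb from Pcdh20, at control −log10 p between 3.57 and 6.15. The next highest count, 5, was that of Ttll7–Adgrl2 (of 25 members), Zeb2–Acvr2a (of 30) and Lrmda–Kcnma1 (of 36). Across deserts, the share was 11.5% in those with 1 member, 10.6% with 2 to 4, 9.35% with 5 to 9 and 12.98% with 10 or more, so it did not follow the number of members in order.

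At the other end, 3 large deserts held no control peak. They were Cdh18–Basp1 and Cdh9–Cdh10 beside cadherin genes, and Adam6a–Zfp386, which spans the immunoglobulin heavy chain locus. That locus, an immunoglobulin light chain locus and a T cell receptor locus count as deserts because their segments are not annotated as protein-coding genes, and together they held 14 members, 1 AP-2-dependent. Of the 1547 members outside these deserts, 11.5% were AP-2-dependent.

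Neighbouring single-copy members in the same desert lay a median of 58.1 kb apart (quartiles 15.4 and 160.1 kb), and 201 of 1045 gaps were under 10 kb. Chains of at least 4 single-copy members with such gaps numbered 7 and took in 29 members, 2 of the chains being in the Lrmda desert.

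Repeated sequence made up part of the members, and its peaks cannot be placed with certainty. By the median count of their 31-base words in the assembly, 234 members had at least 2 copies and 148 at least 100, and 9 of the 234 had an AP-2-dependent region. Among the 1327 single-copy members, 170 (12.8%, 11.1 to 14.7%) had a region, against 4.53% of all single-copy autosomal peaks. Of the 109 members with the composition of a CpG island, 91 were repeated, and 18 (1.36%) were single-copy.

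The repeated members with the largest areas were extreme. The peak chr14:124801502-124802289, 609.0 kb from Fgf14, consists of words found about 1835 times, and its −log10 p was 25.1 for the peak and 167.2 for the region, against a maximum of 9.01 for regions in single-copy members. The peak chr12:97061386-97061837 shares 72.0% of its words with the mitochondrial genome and had 23.8 and 85.0. The other 3 of the 5 were on chromosome 12 near Gm10330, Gm21863 and Ywhaq, at 2 to 7 copies, with no region. The alignment kept up to 10 positions per read, and where the reads of such sequence arose was not tested.

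At the limit of 500 kb the members just inside were weak or moderate peaks without a region, at 500.03, 500.17 and 500.17 kb with −log10 p of 4.42, 5.06 and 3.68. Those just outside, at 499.96, 498.66 and 498.44 kb, had 7.59, 3.66 and 2.97 and no region either.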

How the data were processed

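Facial surface ectoderm was profiled by ATAC-seq in 4 libraries, 2 control and 2 EDKO. According to the methods, the authors trimmed adapters with NGmerge, aligned reads to mm10 with Bowtie2 (--very-sensitive, up to 10 positions per read) and ran Genrich in ATAC-seq mode with duplicates and the mitochondrial chromosome removed. Replicates were combined, so each list holds 1 pooled value per peak. The score deposited by the authors is Genrich's mean signal over a peak, capped at 1000, and the deposited area under the curve is a further score. The deposited −log10 p is that of the summit, not adjusted over positions. The deposited summit offset is the position of the summit in bp from the start of the peak. Because these are peak lists, the reads behind each peak were not counted here.

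Coordinates are counted from 1 on GRCm38. Distances run from the centre of a peak to the start sites of 21853 protein-coding genes on 21 chromosomes, 1 per gene (GENCODE mouse release 21, principal transcript by APPRIS). Bases per class exclude unknown bases. Copy number is the median count of a peak's 31-base words in the primary assembly, single-copy being under 2. Strings were matched on both strands within 100 bp of the summit and in windows centred 1 kb away. CpG island composition means over 50% GC, a ratio over 0.6 and at least 200 bp. Overlaps, distances and strings were tested on simulated data (1500 peaks and 500 windows), with 0 differences from bedtools or direct search.

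Peaks are not replicates, and no p-value is given. The members and lists were chosen with earlier results of these data known. Members were named by rule: the 10 strongest, the 10 with the largest AP-2-dependent region and the 5 farthest among single-copy members, the 10 deserts with the most of these, deserts beside listed genes, the 5 repeated members of largest area, 3 on each side of the limit, and the 5 strongest near a non-coding start. The CTCF and Tfap2b sequences, host genes, deserts without peaks and chromosomes were picked after their values were seen. 1 desert that the rule names is not reported here. H3K4me3 and RNA-seq data were not used here. Python 3.11.15, pandas 2.3.3, numpy 2.4.6 and statsmodels 0.14.6 were used. Alternatives varied the limit, start sites, overlap, area, copy number and string window.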

Additional observations from a re-analysis of the deposited data

How the results depend on the processing

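For 12 results, 68 alternative values were computed. By the 95% interval of a share or median, or a factor of 1.5 for counts and densities, 40 stayed within range of the value reported and 28 did not. The share of gene-desert peaks with an AP-2-dependent region stayed the highest of the 4 distance classes with every transcript start, single-copy sequence, stricter overlap, larger regions and larger peaks. A limit of 400 kb gave 2416 peaks, an AP-2-dependent share of 9.98% and a median GC of 44.8%. A limit of 750 kb gave 637 peaks in 128 deserts, a median −log10 p of 4.26, a width of 390.0 bp, a GC of 43.0%, a CTCF share of 1.099% and 9.26% in non-coding genes. Peaks with an area of at least 500 numbered 774 (2.71 per Mb), with an AP-2-dependent share of 17.2%, a median −log10 p of 5.51, a width of 552.5 bp and a GC of 43.6%. Regions with an area of at least 500 gave a share of 3.97%. Single-copy sequence gave a median −log10 p of 4.53, a GC of 43.3% and an AP-2 string share of 11.2%. A window of 50 bp on each side of the summit gave string shares of 0.961% (CTCF), 6.47% (AP-2), 6.60% (p53 family) and 15.9% (TEAD). The whole peak gave 18.5% (AP-2), 20.9% (p53 family) and 38.4% (TEAD), and 3 or 4 free bases in the AP-2 string gave 19.5%. A shorter or longer window holds fewer or more matches by construction, and the cause of the other shifts was not tested.

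No paired analysis was possible because each list holds 1 value per peak for all libraries together. For the same reason a library could not be left out, and no result has a replicate error. The lists give no reads per peak, and the power to detect a region at a weak peak was not tested.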
